A study of Mus musculus with 30 samples.

Results

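The B cell identity genes are 9 genes that together mark the B lymphocyte lineage, namely Cd79a, Cd79b, Ms4a1, Cd22, Fcer2a, Cr2, Blk, Pax5 and Ebf1. They were taken by symbol from a gene expression table of 23303 entries, and each symbol matched 1 entry. All 9 were kept by a filter on low values (a blood mean no lower than 0.5 FPKM), which left 11656 of the 23303 entries. FPKM, a fragment count scaled by transcript length and by the mapped fragments of the library, is a level of RNA corrected for transcript length and for sequencing depth, so that levels can be set side by side between genes.

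The study sequenced RNA from 14 blood and 16 amygdala libraries (30 in all), each made from a pool of 2 wild-type male C57BL/6J mice aged 2 to 3 months. HC mice were handled home cage controls (4 blood libraries). FC mice received auditory fear conditioning, 5 pairings of a tone with a foot shock, and trunk blood was taken 2 h later (5 blood libraries). Immo+FC mice were immobilized for 2 h, rested undisturbed for 1 week and then went through the same conditioning and collection (5 blood libraries). No group was immobilized without conditioning, so the Immo+FC against FC comparison is of prior immobilization in conditioned mice only. The pools of a group were separate mice, and 12 mice (6 pools) per group entered the study.

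B lymphocytes recognise antigen through the B cell receptor, a membrane immunoglobulin held in a complex with the signalling chains CD79A and CD79B. Kinases such as BLK pass the signal on, and surface proteins such as CD22 and the complement receptor CR2 dampen or strengthen it. The transcription factors EBF1 and PAX5 set up and maintain the B cell programme, and several of the other genes listed here are among their known targets. B cells are a major class of circulating leukocyte in mice.

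The blood libraries held 9081977 to 25892322 sequences. HC library 3 stood apart from the others. Its FPKM values summed to 1674854, against 664738 to 1002978 in the other 13, its beta-globin Hbb-bt stood at 128031 FPKM, and its median correlation with the other blood libraries was the lowest (Pearson r = 0.9311). HC library 4 was the shallowest library and had the next highest Hbb-bt level, 68605 FPKM. The share of sequences above the quality score Q30 was 85.9% to 87.4% in HC, 87.0% in FC library 5 and 88.4% to 90.7% in all other FC and Immo+FC libraries, so the lowest shares were those of HC and of 1 FC library.

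Promoter windows from RefSeq on GRCm38.p6 were at hand for 6 of the members: Cd79a, Cd22, Cr2, Fcer2a, Pax5 and Ebf1. Of the 9 windows of these 6 genes, 3 are printed here. Those of Cr2 and Fcer2a are shown because their levels moved together over the 14 libraries (Pearson r = 0.82 on the log2 scale, as a description). They were not the closest pair, since Cd22 with Fcer2a was at r = 0.97. Their r was also below the median of the 21 pairs among the members other than Pax5 and Ebf1, 0.876. That of Pax5 is shown for contrast, since it followed Cr2 and Fcer2a less (r = 0.35 with Cr2 and 0.60 with Fcer2a). Each is of the 250 bases upstream of an annotated start and free of annotated exon bases, 5′ to 3′ on the gene's strand. Cr2 lies on the minus strand (window chr1:195176720-195176969), Fcer2a on the minus strand (chr8:3690862-3691111) and Pax5 on the minus strand (chr4:44710695-44710944). Capitals mark the E-box letters CAGGTG, the core bound by E proteins, on either strand. The Fcer2a windows without these letters are not printed, so the windows shown are no fair sample for the motif.
Cr2: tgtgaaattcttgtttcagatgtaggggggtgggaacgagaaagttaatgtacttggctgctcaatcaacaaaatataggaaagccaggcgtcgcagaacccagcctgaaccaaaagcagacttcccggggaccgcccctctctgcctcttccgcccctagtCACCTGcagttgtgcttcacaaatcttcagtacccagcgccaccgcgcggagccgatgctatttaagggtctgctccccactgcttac
Fcer2a: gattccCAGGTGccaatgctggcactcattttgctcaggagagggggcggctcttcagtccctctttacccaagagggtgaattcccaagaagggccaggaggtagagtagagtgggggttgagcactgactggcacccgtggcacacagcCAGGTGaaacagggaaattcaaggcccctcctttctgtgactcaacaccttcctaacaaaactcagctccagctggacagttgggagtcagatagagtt
Pax5: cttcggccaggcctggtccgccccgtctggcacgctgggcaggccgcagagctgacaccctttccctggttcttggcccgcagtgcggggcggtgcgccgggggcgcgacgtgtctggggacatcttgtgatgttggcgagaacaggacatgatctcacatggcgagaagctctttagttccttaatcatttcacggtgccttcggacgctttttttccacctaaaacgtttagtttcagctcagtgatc

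In all windows 4 motifs were searched on both strands. The E-box CAGGTG was present in 4 of the 9 member windows (1 each of Cd79a, Cd22, Cr2 and Fcer2a) and in 17.2% of all 32851 windows of the same length. In Cr2 it began 88 bases before the start, and in Fcer2a 244 and 99 bases before it. The other Fcer2a windows, not printed here, held none of the 4 motifs. The EBF1 palindrome CCCNNGGG was found only in Cd22 among the members, 48 bases before the start, and in 11.8% of all windows. The PU.1 core GAGGAA was found in Cd79a and in 1 of the Ebf1 windows, and in 23.3% of all windows. The octamer ATGCAAAT was in no member window and in 1.6% of all windows. No overlap between matches occurred. These matches are a description of letters, and the Pax5 window printed here held none of the 4 motifs. A link between motifs and levels was not tested.

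The members lie on 7 chromosomes of the GRCm38 build: Cd79a at chr7:24897381-24902197 (plus strand), Cd22 at chr7:30865402-30880342 (minus), Cd79b at chr11:106311341-106314762 (minus), Ebf1 at chr11:44617317-45008091 (plus), Ms4a1 at chr19:11249675-11266241 (minus), Fcer2a at chr8:3681737-3694175 (minus), Cr2 at chr1:195136811-195176716 (minus), Blk at chr14:63372836-63417037 (minus) and Pax5 at chr4:44524757-44710487 (minus).

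The 9 genes covered a wide range of levels in blood. By mean FPKM over the 14 libraries the order was Cd79b (844), Cd79a (675), Ms4a1 (219), Fcer2a (145), Cd22 (78.9), Blk (65.0), Pax5 (39.9), Cr2 (13.5) and Ebf1 (8.11). Cd79b was above 98.7% of the tested entries and Ebf1 lay near the middle of them. Each gene had the higher value of the 2 neighbours in this order in 14 of 14 libraries, except Cr2 and Ebf1, where Cr2 was higher in 13. The ranges over libraries did not overlap between Cd79a and Ms4a1 or between Pax5 and Cr2, and overlapped for the other neighbours.

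All members but Ebf1 stayed below 0.5 FPKM in the amygdala, which was processed separately. Pax5 was listed at 0 in 13 of 16 amygdala libraries, Blk in 9 and Ms4a1 in 7. The highest amygdala value was 0.476 FPKM for Fcer2a, 0.306 for Cd79b, 0.190 for Cd79a, 0.137 for Cr2 and 0.0588 for Cd22. Ebf1, which is also transcribed outside the B lineage, ranged from 0.445 to 1.32 FPKM there.

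Cd79a and Cd79b, the signalling chains of the B cell receptor, were the most abundant members. Cd79a stood at 632, 752, 348 and 683 FPKM in HC libraries 1 to 4, at 677, 777, 882, 725 and 936 in FC libraries 1 to 5, and at 473, 582, 757, 606 and 627 in Immo+FC libraries 1 to 5. Its lowest value was in HC library 3 and its highest in FC library 5, and the groups overlapped. Cd79b stood at 841, 999, 545 and 1051 FPKM in HC, at 839, 916, 1033, 895 and 1118 in FC, and at 579, 660, 765, 781 and 798 in Immo+FC. All 5 Immo+FC values of Cd79b lay below all 5 FC values, which was so, in that direction, for 0.884% of all tested entries.

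Ms4a1 encodes CD20, a surface protein of mature B cells and the target of therapeutic antibodies. It stood at 214, 219, 107 and 228 FPKM in HC, at 282, 254, 281, 211 and 249 in FC, and at 164, 164, 240, 225 and 229 in Immo+FC. HC library 3 was far below the other 3 HC libraries, whose mean was 220.3 ± 7.47 FPKM (SD, n = 3). Cd22, an inhibitory co-receptor that binds sialic acid, stood at 76.9, 109, 42.0 and 85.2 FPKM in HC, at 80.3, 87.5, 97.5, 91.8 and 90.1 in FC, and at 50.5, 58.0, 83.2, 73.0 and 79.2 in Immo+FC. The groups overlapped, with Immo+FC libraries 1 and 2 lowest after HC library 3.

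Fcer2a encodes CD23, the low-affinity receptor for IgE, which is high on follicular B cells. It stood at 152, 197, 83.0 and 158 FPKM in HC, at 136, 168, 191, 160 and 181 in FC, and at 75.6, 103, 155, 132 and 141 in Immo+FC. Immo+FC library 1 was here below HC library 3. Cr2, the complement receptor CD21, which is high on marginal zone B cells, stood at 10.6, 13.9, 8.17 and 13.3 FPKM in HC, at 15.3, 17.7, 18.3, 16.2 and 14.1 in FC, and at 9.56, 9.09, 15.5, 13.3 and 13.6 in Immo+FC. All 5 FC values of Cr2 were above all 4 HC values, by 0.200 FPKM at the closest, which was so, in that direction, for 1.65% of all tested entries. Blk, a kinase of the Src family, stood at 72.9, 88.8, 41.8 and 78.2 FPKM in HC, at 64.0, 72.9, 81.1, 64.3 and 77.7 in FC, and at 38.0, 42.8, 65.6, 55.5 and 66.5 in Immo+FC. Its HC libraries 1 and 4 and the FC libraries overlapped, with HC library 3 below and HC library 2 above all FC values, and Immo+FC libraries 1 and 2 were among its 3 lowest.

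The transcription factor genes ordered the libraries differently. Pax5 stood at 32.8, 46.2, 23.6 and 61.5 FPKM in HC, at 31.1, 39.6, 39.2, 33.1 and 77.2 in FC, and at 30.9, 38.7, 38.9, 32.9 and 33.6 in Immo+FC. FC library 5 and HC library 4 held its 2 highest values. Ebf1 stood at 11.7, 10.9, 4.11 and 4.76 FPKM in HC, at 12.0, 9.06, 11.4, 8.20 and 5.32 in FC, and at 5.96, 4.76, 9.69, 7.18 and 8.48 in Immo+FC. HC library 4 and FC library 5, where Pax5 was highest, were among the 4 lowest libraries for Ebf1. Both genes have annotated neighbours on the opposite strand (Gm12462 for Pax5 and Gm12158 for Ebf1), and the libraries did not keep strand, so reads of a gene and its antisense partner cannot be told apart. The same holds for Cd22 (Gm29439) and Ms4a1 (4930526L06Rik).

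**Figure D1:**
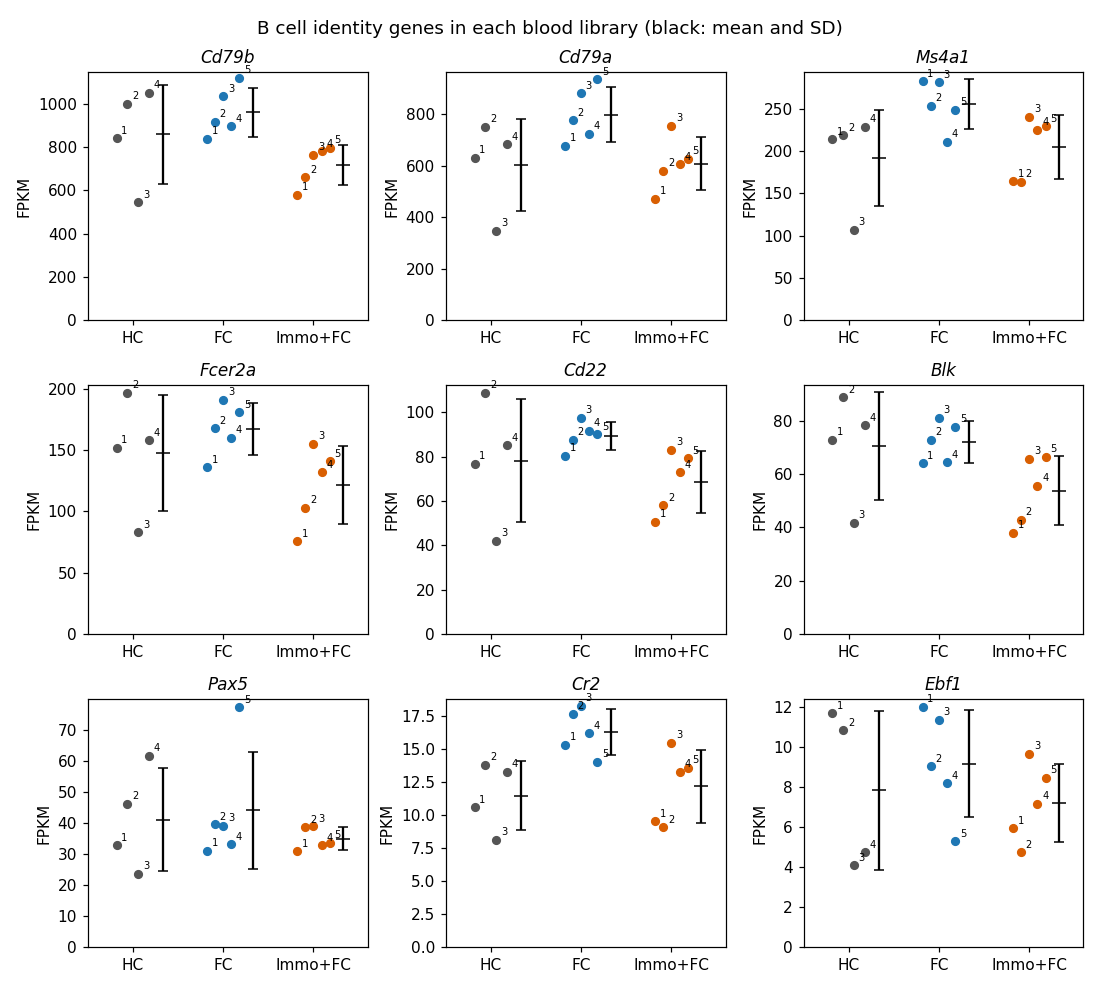
FPKM of each of the 9 B cell identity genes (y axis, linear, from 0) in each blood library, by group (x axis); small numbers are library numbers and black marks are the group mean with SD (n = 4 HC, 5 FC and 5 Immo+FC). HC library 3 is lowest in its group for all 9 genes, and Immo+FC libraries 1 and 2 are the 2 lowest of theirs for 8 of them, all but Pax5.

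The question of the first comparison was whether fear conditioning alone was accompanied by a different level of these genes. Of the 9 members, 0 passed an adjusted p under 0.05 (limma, Benjamini-Hochberg over all 11656 entries), against 0.0343% of all entries, and 3 were higher at an unadjusted p under 0.05 (Cd79a, Ms4a1 and Cr2), against 4.34% of all entries. All 9 fitted log2 fold changes were above 0, with a median of 0.27 beside -0.01 over all entries. In bulk blood, a change in the number of B cells and in RNA per B cell cannot be told apart. This holds for every comparison of levels that follows. The paper counted blood cells and reported a larger neutrophil share and a smaller lymphocyte share in Immo+FC than in either other group. Between HC and FC it reported no difference. It gave no count of B cells apart from other lymphocytes. The ratios within a library given below do not move with B cell number alone, but the mix of B cell types was not measured.

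Cr2 had the largest difference, a mean of 16.3 ± 1.73 FPKM (SD) in FC against 11.5 ± 2.63 in HC, a log2 fold change of 0.53 (SE 0.18), with limma adjusted p = 0.296. Ms4a1 followed, with 255 ± 29.3 FPKM in FC against 192 ± 56.9 in HC, a log2 fold change of 0.47 (SE 0.21) and limma adjusted p = 0.461. Cd79a was at 799 ± 108 FPKM in FC against 604 ± 177 in HC, with a log2 fold change of 0.45 (SE 0.21) and limma adjusted p = 0.474. The smallest differences were those of Blk (0.08, SE 0.21) and Pax5 (0.11, SE 0.27) on the log2 scale. The intervals were wide: that of Blk ran from 0.772 to 1.45-fold.

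This direction rested on HC library 3. Without it the median log2 fold change of the 9 members was -0.00088, 4 were above 0 and 5 below, 0 passed the adjusted threshold (0.0258% of all entries did), and Cr2 alone was higher at an unadjusted p under 0.05 (5.29% of all entries; log2 fold change 0.37, SE 0.17, limma adjusted p = 0.479). Cd79b went from 0.20 to -0.0065, Cd22 from 0.27 to -0.00088 and Blk from 0.08 to -0.15. The markers of red cell precursors were at their highest in HC library 3, with a mean centred log2 level of 1.88 against -0.82 to 0.46 in the other libraries, and its neutrophil markers were at 1.03 against -1.49 to -0.98 in the other 3 HC libraries. With the neutrophil marker level as a covariate, Ms4a1 (log2 fold change 0.65, SE 0.14, limma adjusted p = 0.0406) and Cr2 (0.69, SE 0.12, limma adjusted p = 0.0308) passed the threshold in FC against HC, as did 219 of all entries. With the erythroid level as a covariate 0 members passed and the median was 0.17.

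The second comparison asked whether immobilization 1 week before conditioning was accompanied by a different level than conditioning alone. Cd79b had no overlap between the groups, and Fcer2a, Blk and Cr2 had lower means in Immo+FC by similar amounts, but 0 of 9 members passed the adjusted threshold, as did 0% of all entries (0 of 11656, with 1112 at an unadjusted p under 0.05 in limma). All 9 log2 fold changes were below 0, from -0.25 to -0.50, with a median of -0.40 beside -0.01 over all entries. At an unadjusted p under 0.05, 4 of 9 were lower (Cd79b, Fcer2a, Cr2 and Blk), against 3.75% of all entries.

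Fcer2a had the largest difference, 121 ± 31.9 FPKM (SD) in Immo+FC against 167 ± 21.1 in FC, a log2 fold change of -0.50 (SE 0.23) with limma adjusted p = 0.523. Blk was at 53.7 ± 12.97 FPKM against 72.0 ± 7.70, a log2 fold change of -0.45 (SE 0.20), and Cr2 at 12.2 ± 2.77 against 16.3 ± 1.73, a log2 fold change of -0.44 (SE 0.17). For Cd79b the groups did not overlap, with 716 ± 93.9 FPKM in Immo+FC and 960 ± 113 in FC, a log2 fold change of -0.43 (SE 0.17). All 3 had the same limma adjusted p of 0.523 as Fcer2a. Cd22 (-0.40, SE 0.21), Cd79a (-0.40, SE 0.20), Ebf1 (-0.33, SE 0.31), Ms4a1 (-0.33, SE 0.20) and Pax5 (-0.25, SE 0.26) had smaller differences or wider errors on the log2 scale.

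These values did not rest on HC library 3, which is in neither group. Without it in the fit, the spread shared by all groups was smaller and 7 of 9 members were lower at an unadjusted p under 0.05 (5.32% of all entries), with the lowest limma adjusted p at 0.308. Immo+FC libraries 1 and 2 held the lowest means over the members among the Immo+FC libraries. Leaving them out was not planned and was chosen after these values were seen. A smaller difference without them follows from that choice and is given as a description. Without both, the median log2 fold change was -0.20 and all 9 remained below 0, with a limma adjusted p of 1 for each. The same 2 libraries held the highest neutrophil levels of their group. With the neutrophil marker level as a covariate the median was -0.19, and Ebf1 was at 0.03.

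The third comparison, Immo+FC against HC, shares its libraries with the other 2. Of the 9 members 0 passed the threshold in limma, against 0.0686% of all entries, and 0 had an unadjusted p under 0.05, against 15.3%. The median log2 fold change was -0.13 beside -0.02 over all entries. Blk had the largest value, 53.7 ± 12.97 FPKM in Immo+FC against 70.4 ± 20.2 in HC, a log2 fold change of -0.37 (SE 0.21, limma adjusted p = 0.438). Cd79a, Ms4a1 and Cr2 lay above 0, at 0.05, 0.13 and 0.09 on the log2 scale, and the other 6 below it. Without HC library 3 all 9 were below 0, with a median of -0.38. Still 0 of 9 passed the adjusted threshold, which 2.55% of all entries now did, and 4 of 9 were lower at an unadjusted p under 0.05 (9.63% of all entries). These were Blk at -0.60 (SE 0.17, limma adjusted p = 0.0758), Fcer2a at -0.51 (SE 0.20, limma adjusted p = 0.164), Cd79b at -0.43 (SE 0.14, limma adjusted p = 0.104) and Cd22 at -0.40 (SE 0.16, limma adjusted p = 0.175).

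**Figure D2:**
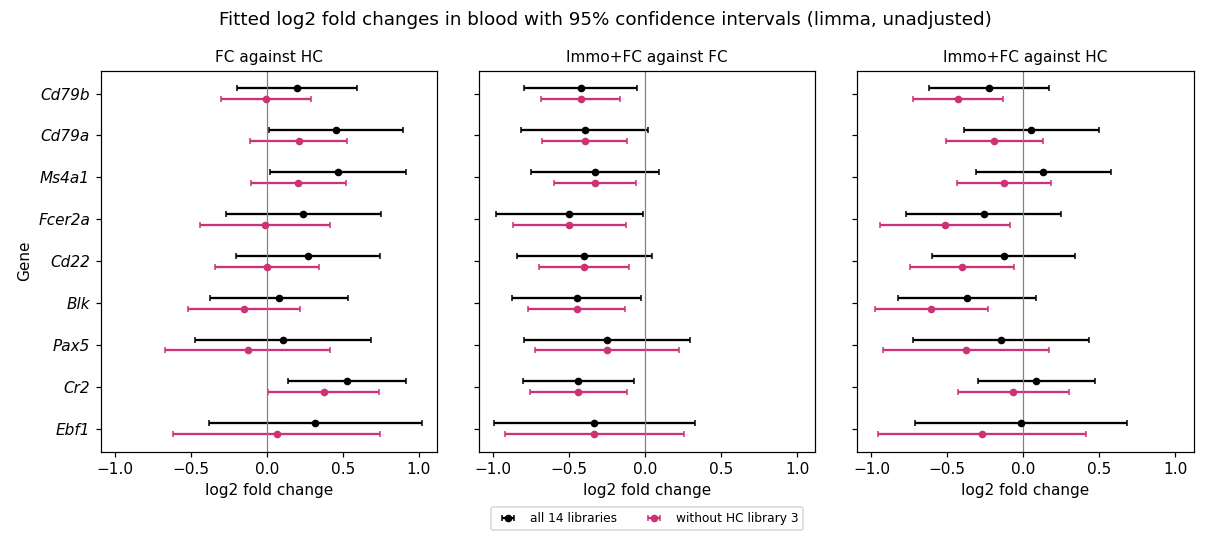
Log2 fold change of each B cell identity gene (y axis) in the 3 blood comparisons (x axis, log2 scale), with unadjusted 95% confidence intervals from the limma fit on log2(FPKM + 0.1); black is the fit of all 14 libraries and pink the fit without HC library 3. Without that library all FC against HC values are lower, with Cr2 still highest at 0.37, while the Immo+FC against FC values keep their place with narrower intervals.

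The 7 surface and kinase genes moved together from library to library, and Pax5 and Ebf1 did so less. Over the 14 libraries, the 21 pairs among the 7 surface and kinase genes had Pearson correlations of log2 levels from 0.749 to 0.967, with a median of 0.876, and from 0.651 to 0.974 without HC library 3. Pax5 correlated with these 7 genes at 0.350 to 0.758 and Ebf1 at 0.384 to 0.677. Pax5 and Ebf1 with each other were at -0.154, and at -0.479 without HC library 3. These are descriptions over libraries that differ in group, depth and blood composition, which all genes of a library share.

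**Figure D3:**
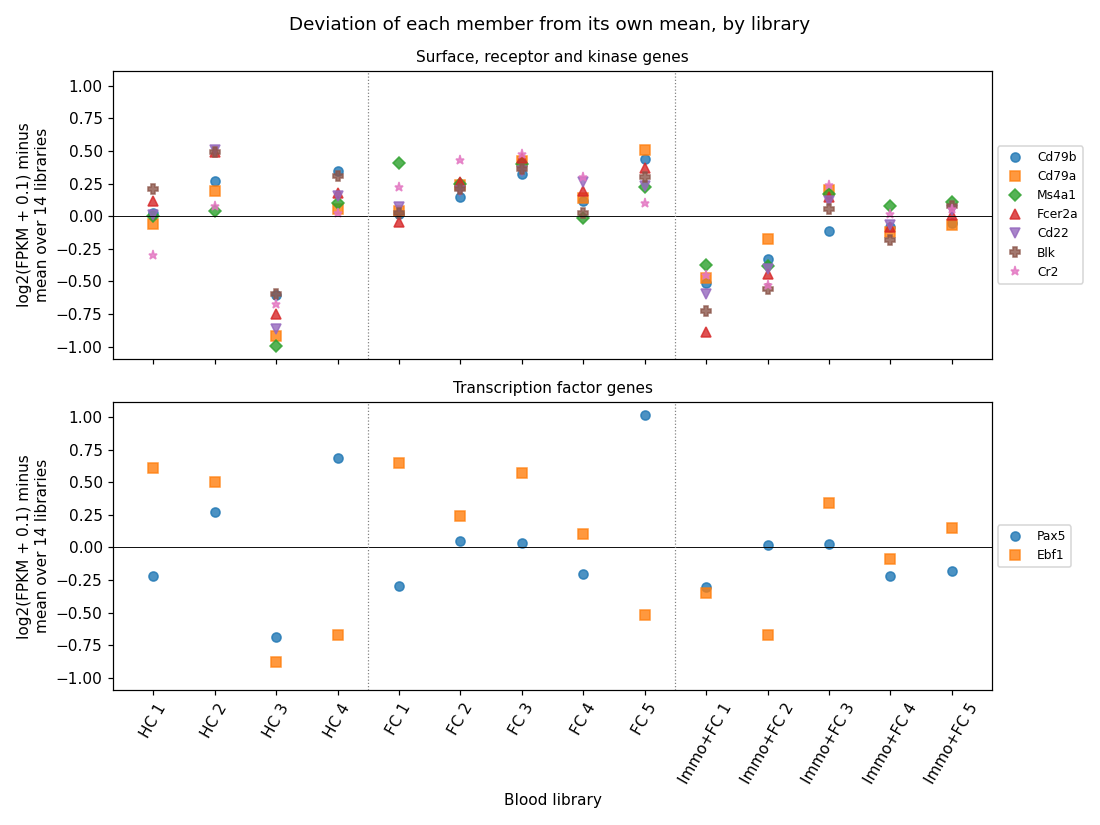
Log2(FPKM + 0.1) of each member minus its own mean over 14 blood libraries (y axis) by library (x axis), with dotted lines between groups; the upper panel holds the 7 surface, receptor and kinase genes and the lower panel Pax5 and Ebf1. The 7 genes lie close together in most libraries and all lie below their means in HC library 3, while Pax5 and Ebf1 lie far apart in HC library 4 and FC library 5.

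Ratios within a library set the members against each other, and 3 pairs were compared in 3 comparisons each, 9 exact permutation tests in all (two-sided, Benjamini-Hochberg over the 9). Cd79a to Cd79b, the 2 chains of one complex, had log2 ratios of -0.41, -0.41, -0.65 and -0.62 in HC, of -0.31, -0.24, -0.23, -0.30 and -0.26 in FC, and of -0.29, -0.18, -0.02, -0.37 and -0.35 in Immo+FC. The 4 HC ratios were below all 10 others. The mean log2 ratio was higher by 0.26 in FC than in HC (exact p = 0.00794, the smallest that this design allows, adjusted p = 0.0714) and by 0.28 in Immo+FC than in HC (exact p = 0.0159, adjusted p = 0.0714). Immo+FC and FC differed by 0.03 (exact p = 0.762, adjusted p = 0.849). Without HC library 3 the FC against HC difference was 0.21 (exact p = 0.0179, the smallest that 5 against 3 libraries allow, adjusted p = 0.0804). FC library 5, whose Q30 share of 87.0% lay within the HC range, had a log2 ratio of -0.26, inside the range of the other FC libraries. Its Cr2 to Fcer2a log2 ratio of -3.69 lay below the other FC libraries and within the HC range. Whether the ratios follow the Q30 share was not tested.

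Cr2 to Fcer2a had log2 ratios of -3.84, -3.83, -3.35 and -3.57 in HC, of -3.15, -3.25, -3.38, -3.30 and -3.69 in FC, and of -2.98, -3.50, -3.32, -3.31 and -3.37 in Immo+FC. Fcer2a was thus 7.91 to 14.3 times as abundant as Cr2 in every library, and the groups overlapped. The mean log2 ratio was higher by 0.35 in Immo+FC than in HC (exact p = 0.0556, adjusted p = 0.167) and by 0.29 in FC than in HC (exact p = 0.103, adjusted p = 0.232). Ebf1 to Pax5 varied most, from -3.86 in FC library 5 to -1.37 in FC library 1, and no comparison separated the groups (adjusted p = 0.849 in all 3 by the exact permutation test).

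**Figure D4:**
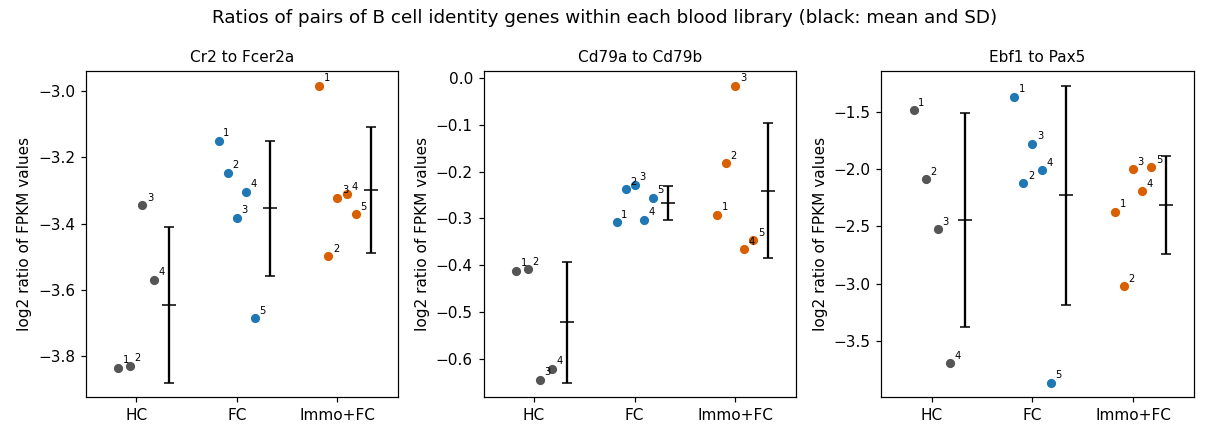
Log2 ratio of FPKM values (y axis) of 3 pairs of members within each blood library, by group (x axis); small numbers are library numbers and black marks are the group mean with SD (n = 4 HC, 5 FC and 5 Immo+FC). For Cd79a to Cd79b the 4 HC libraries lie below all others, at -0.41 or lower, and for Ebf1 to Pax5 HC library 4 and FC library 5 lie lowest.

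Other genes of the B lineage gave a background to these values. Of 15 genes of B cell receptor signalling 0 passed the threshold in any comparison, and in Immo+FC against FC 11 had log2 fold changes below 0 (median -0.09). Ptpn6, an inhibitory phosphatase found in many leukocytes, stood at 265 ± 20.03 FPKM in Immo+FC against 265 ± 20.1 in FC (log2 fold change -0.0036, SE 0.10). Of 20 other B cell surface genes 18 lay below 0 in that comparison (median -0.30), with Ly6d at -0.37 (SE 0.18) and Cd24a, which red cells also carry, at -0.12 (SE 0.39). Of 14 B lineage transcription factors 10 lay below 0 (median -0.18), with Ets1 at -0.39 (SE 0.17) and Spi1, which is also high in myeloid cells, at 0.69 (SE 0.29). All 10 MHC class II genes, which B cells share with monocytes and dendritic cells, lay below 0 (median -0.39), with H2-Aa at -0.43 (SE 0.19) and Cd74, the invariant chain, at -0.30 (SE 0.20). With all libraries, none of these 4 lists held a gene past the threshold in any comparison. Without HC library 3, 1 surface gene and 1 MHC class II gene were lower past it in Immo+FC against HC, Siglecg, an inhibitory receptor that binds sialic acid, at -0.72 (SE 0.17, limma adjusted p = 0.0413), and H2-Ob, a chain of the MHC class II accessory protein H2-O, at -0.69 (SE 0.14, limma adjusted p = 0.0287). In that fit 0.801% of all entries were lower past the threshold. Siglecg and H2-Ob are named because they passed, after their values were seen.

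Genes of antibody-secreting cells had other directions. In Immo+FC against FC, 4 of 7 plasma cell genes lay above 0 (median 0.39). Of these, 2 (Igj and Xbp1) were higher at an unadjusted p under 0.05 in limma, against 5.79% of all entries. Igj, the joining chain of polymeric antibodies, stood at 29.8 ± 13.9 FPKM in Immo+FC against 8.35 ± 4.96 in FC (log2 fold change 1.85, SE 0.36, limma adjusted p = 0.523), with Immo+FC library 3 below FC library 5 and the other 4 above all FC values. Tnfrsf17, the survival receptor BCMA, had a log2 fold change of 1.89 (SE 0.88) and was listed at 0 in 2 of the 14 blood libraries. Xbp1, a factor of the secretory programme, stood at 81.7 ± 32.0 FPKM against 45.9 ± 8.66 (log2 fold change 0.76, SE 0.26, limma adjusted p = 0.523), and Mzb1, which B cells also transcribe, at 95.1 ± 15.1 against 103 ± 9.47 (-0.12, SE 0.13). Of the other plasma cell genes, Prdm1 was at 0.39 (SE 0.32). Irf4 (-0.17, SE 0.15) and Sdc1 (-0.22, SE 0.23) lay below 0. Genes of B cell precursors were low. Of 9, 5 passed the filter, with Il7r, which T cells also transcribe, at 32.5 FPKM and Cd93 at 4.88 over all libraries, and Vpreb2 was listed at 0 in 12 of 14 libraries.

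Markers of other blood cells had log2 fold changes in both directions. In Immo+FC against FC, 11 of 12 neutrophil genes had log2 fold changes above 0 (median 0.84), and their FPKM values summed to 4520 to 29856 in HC, 8528 to 21108 in FC and 12320 to 44687 in Immo+FC. All 12 T cell genes lay below 0 (median -0.23), as did all 9 NK cell genes (median -0.20), and all 9 monocyte genes lay above 0 (median 0.59). The T cell sums were 523 to 746 FPKM in HC, 727 to 977 in FC and 568 to 949 in Immo+FC. In FC against HC, 10 of 12 neutrophil genes lay above 0 (median 0.69), and without HC library 3 all 12 did (median 1.27). Of these, 9 were higher at an unadjusted p under 0.05 in limma, against 5.29% of all entries, and 0 passed the adjusted threshold. In Immo+FC against HC, 11 of 12 lay above 0 (median 1.49) and 0 passed, whereas without HC library 3 all 12 lay above 0 (median 2.11). In that fit 9 passed the adjusted threshold of limma, all higher, against 1.75% of all entries higher past it. In FC against HC all 12 T cell genes (median 0.43) and all 9 NK cell genes (median 0.44) lay above 0. Without HC library 3 these medians were 0.34 and 0.37, beside -0.00088 for the B cell identity genes. Erythroid sums were 431 to 4142 FPKM in HC, 560 to 1097 in FC and 584 to 1224 in Immo+FC, with Alas2 listed at 0 in every library. Genes of neurons and glia had a mean centred log2 level of 0.02 to 1.33 in HC, -1.03 to 0.37 in FC and -1.11 to 0.14 in Immo+FC. In FC against HC the median log2 fold change of 7 platelet genes was -0.21 and that of 5 tested skeletal muscle genes 0.03. Beyond the covariate fits given here, the part of these shifts in the members' values was not tested.

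**Figure D5:**
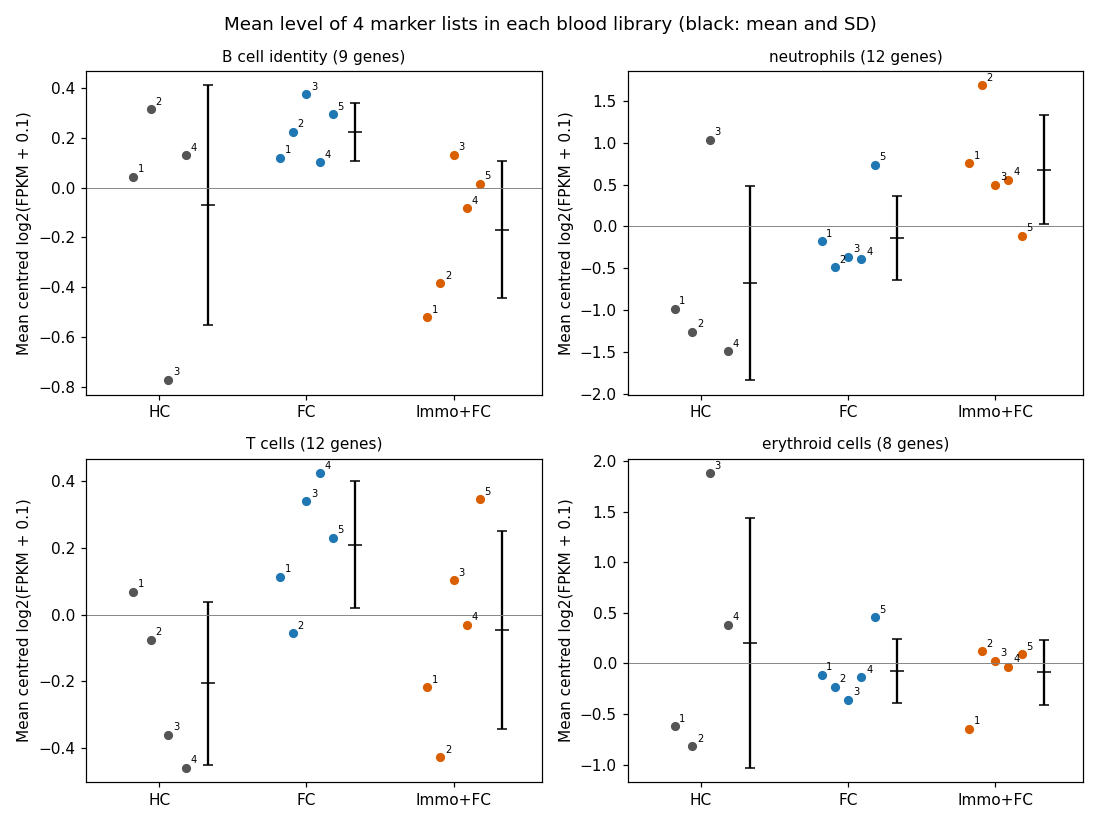
Mean centred log2(FPKM + 0.1) of the 9 B cell identity genes and of 3 lists of markers of other blood cells (y axis) in each blood library by group (x axis); small numbers are library numbers and black marks are the group mean with SD (n = 4 HC, 5 FC and 5 Immo+FC). HC library 3 is lowest for the B cell identity genes and highest of its group for neutrophil and erythroid markers, and Immo+FC libraries 1 and 2 are lowest and highest of their group for B cell and neutrophil markers respectively.

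The genes whose levels were most like the mean of the 9 members over 14 libraries were, by Pearson r, Gga2 (0.974), Fcrl1 (0.969), Fcrla (0.968), H2-DMb2 (0.968), Gimap6 (0.963), Grap (0.962), Arpc5l (0.955), Swap70 (0.953), Icosl (0.952) and H2-Eb2 (0.951). All 10 stayed at 0.913 or above without HC library 3. Of the 10, Fcrl1 and Fcrla are B cell genes of the Fc receptor-like family, and H2-DMb2 and H2-Eb2 encode MHC class II chains. The least like were Rab8b (-0.943), Rhob (-0.932), Rheb (-0.923), Dhrs1 (-0.921) and Myadm (-0.921). Of 11647 other entries 61 had an r above 0.9 and 17 an r below -0.9, over libraries that share the differences in blood composition given above.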

How the data were processed

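Blood and amygdala RNA of pooled mice was sequenced after polyadenylated RNA selection (TruSeq, without strand), with globin RNA depleted from blood. Alignment by the authors was with STAR 2.3 (genome build mm10), and FPKM values were made with Cufflinks and Cuffdiff 2.1.1, separately for each tissue. The authors deposited these FPKM values as 1 table. They also deposited the sequence counts and the percent of sequences above Q30 of each library, used here for depth and quality. The FPKM table holds no read counts, so no counting interval was given and low values are less certain.

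From these, log2(FPKM + 0.1) of 11656 entries (blood mean no lower than 0.5 FPKM) was fitted with limma 3.58.1 (R 4.3.3), 3 groups in 1 fit with a variance trend, without batch or block terms. Adjusted p-values are Benjamini-Hochberg over all entries, with a threshold of 0.05. The fit was tested on simulated data. Fold changes are on the log2(FPKM + 0.1) scale, which understates changes of low genes. Ratios were tested by exact permutation over libraries (Python 3.11.15). A level of a marker list is the mean over its genes of log2 values centred over libraries. The genes named are all 9 members, of each other list those past the threshold (at most 4) or else the 2 of highest mean FPKM, shown here for the B lineage lists (1 gene is not reported here), and the 10 most and 5 least like genes by Pearson correlation. Igj, Tnfrsf17, Prdm1, Irf4, Sdc1, Vpreb2 and Alas2 fall outside this rule and were named after their values were seen. The members and lists were chosen with earlier results of these data known. Positions are from GENCODE vM21 (GRCm38) and promoters from RefSeq. Alternatives covered pseudocount, filters, scaling, weights, covariates, single libraries and a replicate block.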

Additional observations from a re-analysis of the deposited data

Results flagged for a closer look

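In 39 groups of library values examined (the 9 members, 3 ratios and the mean of the members, in 3 blood groups each), 2 single libraries lay far from the rest of their group, and chance alone marks about 1 in 20 groups. Ms4a1 stood at 107 FPKM in HC library 3, below the other 3 HC libraries by 0.879 of the group's whole range. Pax5 stood at 77.2 FPKM in FC library 5, above the other 4 FC libraries by 0.816 of the range.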

How the results depend on the processing

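In Immo+FC against FC, 278 of 279 values of single members over 31 alternatives were below 0 and 0 passed the threshold. The exception was Ebf1 at 0.031 with the neutrophil level as a covariate. In all 3 comparisons the count of members past the threshold was 0 under every alternative except that covariate, which gave 2 in FC against HC (Ms4a1 and Cr2, both higher). The cause of each change below was not tested.

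In FC against HC, the count of all genes past the threshold (4) was 9 with a minimum mean of 0.1 FPKM, 195 without a filter, 11 with array weights, 2 in a fit of only these groups, 219 with the neutrophil covariate, 1 with the neuron and glia level, 1 with the share above Q30, and 21 without HC library 3 and Immo+FC libraries 1 and 2. Log2 fold changes changed sign for Ebf1 (-0.12) and Blk (-0.11) with array weights, for Ebf1 (-0.23) and Blk (-0.091) with the neuron and glia level, and for Ebf1 (-0.19) with the share above Q30. Without those 3 libraries, Cd79b was at -0.0065, Cd22 at -0.00088, Pax5 at -0.13, Fcer2a at -0.015 and Blk at -0.15.

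In Immo+FC against HC, the count of all genes (8) was 3 with a pseudocount of 0.01, 102 with 1, 35 with a minimum mean of 0.1 FPKM, 105 without a filter, 85 with quantile normalization, 2 in a fit of only these groups, 361 with array weights, 13 without the variance trend, 63 with the neutrophil, 1 with the neuron and glia, 1 with the Q30 and 19 with the erythroid covariate, 1 without Immo+FC libraries 1 and 2, and 52 also without HC library 3. Cd79a was at -0.090 and Ms4a1 at -0.0069 with array weights, Cd79a at -0.020 with the erythroid level and at -0.059 without the 3 libraries, and Ebf1 at 0.014 with median-ratio scaling. Without Immo+FC libraries 1 and 2, Cd22 was at 0.082, Ebf1 at 0.24 and Fcer2a at 0.016. Pax5 was at 0.14 and Cr2 at -0.096 with the neuron and glia level, and Ms4a1 at -0.023, Pax5 at 0.33 and Cr2 at -0.11 with the share above Q30. With the neutrophil covariate the median of the 9 members was 0.35, with Cd79b at 0.084, Cd22 at 0.35, Pax5 at 0.0055, Ebf1 at 0.59, Fcer2a at 0.18 and Blk at 0.067, and in Immo+FC against FC the median was -0.19. With group medians the log2 ratio in Immo+FC against FC was -0.018 for Cr2 to Fcer2a and -0.036 for Cd79a to Cd79b.

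Leaving out 1 library at a time gave ranges. The count of all genes ran from 1 (without HC 4) to 19 (without FC 5) in FC against HC, and from 1 (without HC 4) to 296 (without HC 3) in Immo+FC against HC. In FC against HC, Cd79b ran from -0.0065 to 0.31, Cd22 from -0.00088 to 0.46, Pax5 from -0.13 to 0.33, Fcer2a from -0.015 to 0.40 and Blk from -0.15 to 0.21, the lowest each without HC 3. In Immo+FC against HC, Ebf1 ran from -0.27 to 0.22, Cd22 from -0.40 to 0.055, Cd79a from -0.19 to 0.18, Ms4a1 from -0.13 to 0.24, Cr2 from -0.066 to 0.19 and Pax5 from -0.38 to 0.078. The log2 ratio of Ebf1 to Pax5 ran from -0.20 to 0.63 in FC against HC, from -0.28 to 0.45 in Immo+FC against HC and from -0.49 to 0.13 in Immo+FC against FC, where Cr2 to Fcer2a ran from -0.027 to 0.11 and Cd79a to Cd79b from -0.030 to 0.058.

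Library numbers were not treated as pairs in the main fit. Same-numbered libraries came from different pools of mice: library 3 was pool 23 in HC, pool 9 in FC and pool 3 in Immo+FC. The correlations of deviations between same-numbered libraries ran from -0.25 to 0.21, which does not settle whether they were handled together. With the number as a replicate block, the count of all genes in FC against HC was 2, Ebf1 in Immo+FC against HC was at 0.041, and the median of the members was 0.24, -0.40 and -0.16 in the 3 comparisons. The block changed the call of no member. The FPKM table gives no counts, so the counting precision of each value is unknown.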
